A study of Homo sapiens with 12 samples.

Results

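The interaction of dexamethasone (Dex) and KLA was measured by RNA sequencing in HepG2, a human hepatoma cell line in long use. For each gene it is the log2 effect of Dex in cells given KLA (DexKLA against KLA) minus the log2 effect of Dex in cells not given KLA (Dex against DMSO). A value of 0 means that the effects of Dex alone and KLA alone multiplied. A positive value means that both agents together left a gene higher, and a negative value lower, than this product. The value is the same when the 2 agents swap places. It uses all 12 libraries of the series, 3 in each of 4 groups. All cells were wild type and spent 24 h in medium with charcoal-stripped serum before a treatment of 24 h. The DMSO group received 0.1% DMSO as vehicle, the Dex group 50 nM Dex and the KLA group KLA at a labelled 100 ng/µl. The DexKLA group received both agents, and the labels do not restate the doses for it. The labels do not say whether the treated cells received DMSO as well, and the labelled unit of the KLA dose could not be checked. Whether each replicate came from its own culture is not stated, so the spread that the p-values rest on is that among these libraries and could be technical.

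Dex is a synthetic glucocorticoid. It binds the glucocorticoid receptor, which moves to the nucleus, activates genes such as FKBP5 and PER1, and in many cell types restrains genes driven by NF-kB. The labels do not spell out KLA. Elsewhere these letters commonly stand for a bacterial lipid A, an agonist of the receptor TLR4, which acts through NF-kB. In liver, glucocorticoids and inflammatory signals meet on the same genes, those of the plasma proteins of the acute phase and of glucose production among them.

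Total counts over genes ran from 3317739 to 20933489 per library. Every KLA library held at least 15998665 counts and every DMSO library at most 5277462, so depth and KLA cannot be told apart between these 2 groups. Hepatocyte and hepatoma markers were abundant, with albumin (ALB) at a mean of 81548 CPM (counts scaled to the same library total). The marker levels of this paragraph carry no TMM factors, and the gene levels further on do. Their summed level was 103608 to 118156 CPM in the DMSO libraries, below all the others, which ran from 122205 to 154391 CPM. Of 14 macrophage and Kupffer cell markers, 7 were at 0 in all libraries (CD163, MARCO, VSIG4, ADGRE1, C1QA, C1QB and C1QC). The rest summed to 3990 to 4700 CPM in every library and consisted almost wholly of lysozyme (LYZ, mean 4223 CPM). Endothelial markers summed to at most 17.2 CPM and stellate cell markers to at most 55.2 CPM. Cholangiocyte markers, led by SPP1, with CFTR and AQP1 at 0, summed to 1021 to 1204 CPM in the KLA libraries, above all the others (782 to 921 CPM). Their part in the results was not tested. In RNA from whole cultures, fewer cells of a type and less RNA per cell cannot be told apart. TLR4 itself held 0 to 9 counts per library and could not be tested.

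Of 13166 genes tested, 5 had an interaction at an adjusted p under 0.05, which is 0.038% of the genes (edgeR quasi-likelihood test, Benjamini-Hochberg adjustment). Positive values were found for CYP24A1, HIPK1, MYCBP2 and PRKAR1A (0.0304% of genes), and a negative value for RPPH1 (0.0076%). All 5 had the same adjusted p of 0.045 in edgeR's quasi-likelihood test. At an unadjusted p under 0.05 there were 2926 genes, 22.2% of those tested. The next level of adjusted p, 0.0544, was shared by many genes, and 1105 genes (8.39%) lay under 0.1, with 577 positive (4.38%) and 528 negative (4.01%). The call of the 5 was not stable. None of them was called without DMSO replicate 1, Dex replicate 2 or 3, or DexKLA replicate 2 or 3. In turn, 1 was called without DMSO replicate 3, 2 without KLA replicate 1 and 3 without DMSO replicate 2. Leaving out Dex replicate 1, KLA replicate 2 or DexKLA replicate 1 kept all 5 and gave 430, 418 and 681 genes, and leaving out KLA replicate 3 kept all 5 and gave 8. Over all 26 alternatives the count ran from 0 to 1041.

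**Figure D1:**
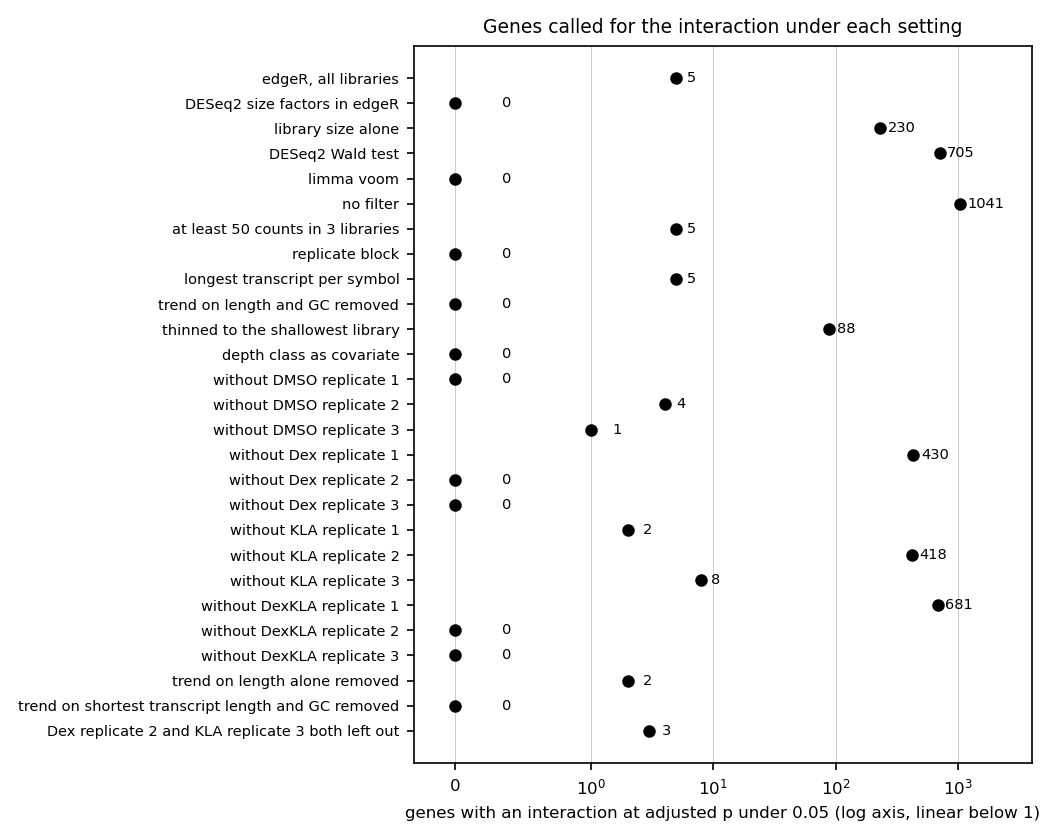
Number of genes with an interaction at an adjusted p under 0.05 (log axis, linear below 1) for the edgeR fit to all libraries (5 genes) and for each of 26 alternative settings, each a point. The counts run from 0 to 1041, and 5 of the 12 settings that leave out a library give 0.

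CYP24A1 encodes the mitochondrial 24-hydroxylase that inactivates vitamin D (hg38 chr20:54153446-54173986, minus strand). Its level was 57.2, 20.5 and 40.8 CPM in the DMSO libraries, 11.1, 11.2 and 10.8 CPM with Dex, 9.87, 11.3 and 6.31 CPM with KLA and 12.8, 10.2 and 13.2 CPM with DexKLA. All 9 treated libraries lay below all 3 DMSO libraries, and the 3 treated groups lay close together. CYP24A1 fell with Dex alone by 1.80 ± 0.27 on the log2 scale (standard error, edgeR adjusted p = 0.000726) and with KLA alone by 2.08 ± 0.25 (edgeR adjusted p = 0.000357). In cells with KLA the Dex value was 0.43 ± 0.26, which was not called (edgeR adjusted p = 0.566). Had the 2 falls multiplied, the DexKLA libraries would have stood at 2.56 CPM. The interaction was 2.23 ± 0.37, with a 95% interval of 1.46 to 3.00. The combination was thus about as low as each agent alone and no lower. Leaving out single libraries moved the interaction between 1.88 (without DMSO replicate 1) and 2.56 (without DMSO replicate 2), and it was called in 6 of these 12 fits.

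PRKAR1A encodes the type I alpha regulatory subunit of protein kinase A, which holds the kinase inactive until cyclic AMP binds (hg38 chr17:68512379-68533429, plus strand). The DMSO libraries read 363, 305 and 361 CPM. The Dex libraries read 253, 219 and 210.5 CPM, the KLA libraries 212, 199 and 193 CPM and the DexKLA libraries 234, 219 and 253 CPM. Every treated library lay below every DMSO library, as for CYP24A1, and the DexKLA libraries overlapped those with Dex and lay above those with KLA. PRKAR1A fell with Dex by 0.59 ± 0.11 (edgeR adjusted p = 0.00458) and with KLA by 0.77 ± 0.11 (edgeR adjusted p = 0.0011). Multiplied effects would have given 134 CPM with both. Its interaction was 0.82 ± 0.15, with a 95% interval of 0.51 to 1.13.

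HIPK1, a nuclear serine/threonine kinase (hg38 chr1:113929844-113977869, plus strand), followed another course. Its level was 40.3, 43.6 and 37.1 CPM in DMSO, 28.8, 22.5 and 26.8 CPM with Dex, 29.5, 28.0 and 22.2 CPM with KLA and 33.3, 35.3 and 39.9 CPM with DexKLA. The DexKLA libraries lay above all 6 libraries given a single agent, and 1 of them lay within the DMSO range. HIPK1 fell with Dex by 0.66 ± 0.14 (edgeR adjusted p = 0.0195) and with KLA by 0.60 ± 0.13 (edgeR adjusted p = 0.0109). Against DMSO the combination differed by -0.15, where multiplied effects would have given 17.2 CPM. The interaction was 1.11 ± 0.19, with a 95% interval of 0.71 to 1.52.

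MYCBP2, a very large E3 ubiquitin ligase (hg38 chr13:77044657-77327094, minus strand), had the same course. It overlaps MYCBP2-AS1 on the other strand, and since the strand of the reads is not given in the sources used here, the 2 cannot be told apart. The DMSO libraries read 29.8, 23.1 and 29.7 CPM, the Dex libraries 19.1, 15.6 and 19.8 CPM, the KLA libraries 17.8, 20 and 16.0 CPM and the DexKLA libraries 22.8, 25.8 and 31.3 CPM. With both agents the libraries overlapped the DMSO range and lay above all libraries with a single agent. MYCBP2 fell with Dex by 0.63 ± 0.17 (edgeR adjusted p = 0.0494) and with KLA by 0.61 ± 0.15 (edgeR adjusted p = 0.0164). The interaction was 1.21 ± 0.22, with a 95% interval of 0.75 to 1.66.

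RPPH1 is the RNA subunit of ribonuclease P, which trims the leading end of transfer RNA precursors (hg38 chr14:20343071-20343411, minus strand). It held few reads, 5, 8 and 21 counts in the DMSO libraries and 11 to 138 in the others. In CPM the DMSO libraries read 1.41, 1.44 and 4.58, those with Dex 7.48, 4.01 and 5.06, those with KLA 6.73, 6.67 and 5.25, and those with DexKLA 2.06, 2.55 and 1.66. The DexKLA libraries lay below all 6 libraries given a single agent, and within the DMSO range. RPPH1 rose with KLA alone by 1.32 ± 0.33 (edgeR adjusted p = 0.0166) and fell when Dex was added to KLA by 1.64 ± 0.30 (edgeR adjusted p = 0.00677). With Dex alone the value was 1.02 ± 0.37 (edgeR adjusted p = 0.126). Its interaction was -2.66 ± 0.48, with a 95% interval of -3.65 to -1.67. It ranged from -3.46 (without DMSO replicate 3) to -2.32 (without DMSO replicate 2).

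**Figure D2:**
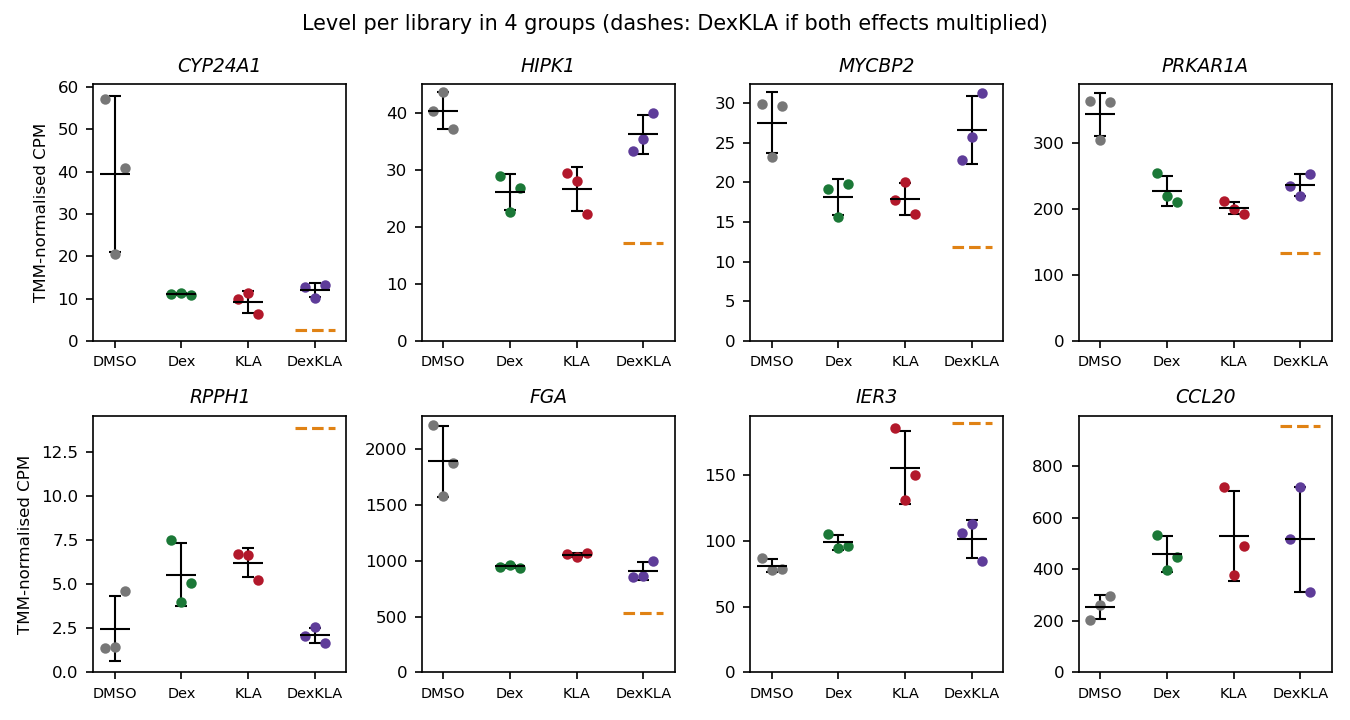
TMM-normalised CPM (linear axes from 0) of 8 genes in each library, 3 points per group for DMSO, Dex, KLA and DexKLA, with the mean (bar) and SD; orange dashes show the DexKLA level if both effects multiplied. In CYP24A1, PRKAR1A and FGA the DexKLA points stay near the single agents, in HIPK1, MYCBP2 and RPPH1 they lie nearer to DMSO, and in all 8 panels the mean of the DexKLA points departs from the dashes.

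The region before the start of the kept transcript is shown for the 3 called genes found in the promoter table used and for FGA, whose course resembled that of CYP24A1, so that the 2 kinds of course can be set beside their promoters. Of 7 genes looked up in that table of RefSeq promoters (GRCh38.p14), 4 matched, and CYP24A1, RPPH1 and IER3 were not matched. Each line gives 250 bases that end at the base before the start, and capitals mark the motifs found. HIPK1 is chr1:113929594-113929843 on the plus strand, MYCBP2 chr13:77327095-77327344 on the minus strand, PRKAR1A chr17:68512129-68512378 on the plus strand and FGA chr4:154590743-154590992 on the minus strand.
HIPK1: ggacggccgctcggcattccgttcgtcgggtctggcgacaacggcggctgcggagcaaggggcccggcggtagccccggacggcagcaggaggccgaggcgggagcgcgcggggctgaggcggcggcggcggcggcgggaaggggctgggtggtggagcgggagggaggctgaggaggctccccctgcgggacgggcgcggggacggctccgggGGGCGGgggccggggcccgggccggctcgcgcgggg
MYCBP2: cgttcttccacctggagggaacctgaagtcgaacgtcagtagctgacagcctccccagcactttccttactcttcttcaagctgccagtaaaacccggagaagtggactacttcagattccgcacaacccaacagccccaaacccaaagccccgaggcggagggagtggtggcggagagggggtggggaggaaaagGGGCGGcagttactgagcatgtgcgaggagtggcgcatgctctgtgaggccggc
PRKAR1A: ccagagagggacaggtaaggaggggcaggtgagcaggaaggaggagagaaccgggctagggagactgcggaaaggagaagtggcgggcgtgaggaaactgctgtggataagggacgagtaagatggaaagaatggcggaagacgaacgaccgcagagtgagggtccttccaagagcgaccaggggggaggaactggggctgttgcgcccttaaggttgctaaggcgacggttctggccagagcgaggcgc
FGA: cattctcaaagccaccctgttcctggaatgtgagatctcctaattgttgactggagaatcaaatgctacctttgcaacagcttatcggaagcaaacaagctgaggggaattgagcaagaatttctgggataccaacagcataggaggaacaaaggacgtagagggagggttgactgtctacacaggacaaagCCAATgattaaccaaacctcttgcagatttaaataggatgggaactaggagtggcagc
Both strands were searched for the glucocorticoid receptor half-site AGAACA, the GC box GGGCGG, the CCAAT box CCAAT and the TATA box TATAAA, none of which contains another. The capitals in HIPK1 and MYCBP2 are a GC box, which begins 36 and 54 bases before the start, and 42.6% of all 35116 windows of this length hold one. The capitals in FGA are a CCAAT box 58 bases before the start, a motif held by 32.0% of windows. The PRKAR1A window held none of the 4 motifs. None of the 4 windows held AGAACA, which 12.4% of all windows hold, and none held TATAAA (10.7%). The HIPK1 window was 82.4% G or C and the FGA window 45.2%. A match or its absence describes these letters only.

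The next genes by p named here all had an edgeR adjusted p of 0.0544 and were not called. FGA, the alpha chain of fibrinogen (hg38 chr4:154585275-154590742, minus strand), stood at 2210, 1575 and 1877 CPM in DMSO, 943, 965 and 936 CPM with Dex, 1057, 1034 and 1066 CPM with KLA and 858, 862 and 999 CPM with DexKLA. All treated libraries lay below all DMSO libraries by a wide margin. FGA fell with Dex by 0.99 ± 0.12 (edgeR adjusted p = 5.67e-05) and with KLA by 0.84 ± 0.12 (edgeR adjusted p = 0.0011), and multiplied effects would have given 529 CPM. Its interaction was 0.78 ± 0.17. FGB, the beta chain that joins the same protein, had an interaction of 0.08, with a 95% interval of -0.24 to 0.40. FGB fell with Dex by 0.58 ± 0.11 (edgeR adjusted p = 0.00634) and with DexKLA against KLA by 0.50 ± 0.11 (edgeR adjusted p = 0.0249), and its KLA value was -0.03.

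The other positive genes among the 12 of smallest p, at the same adjusted p, were REV3L, MED1, GIGYF2, PRKDC, SLC35D1, AFAP1 and CDK12, from 0.82 (GIGYF2) to 1.42 (AFAP1). They were 0.41 (GIGYF2) to 0.99 (AFAP1) when each library's trend on transcript length and GC content, described with the length of the genes, was removed, with MED1 at 0.60 in place of 0.98 and CDK12 at 0.60 in place of 0.96. REV3L is the catalytic subunit of DNA polymerase zeta, PRKDC that of the DNA-dependent protein kinase, CDK12 a kinase of RNA polymerase II and MED1 a Mediator subunit that binds nuclear receptors. GIGYF2 represses translation, SLC35D1 carries nucleotide sugars into the endoplasmic reticulum and AFAP1 binds actin filaments. In all 7 the Dex value without KLA was negative, from -0.78 (AFAP1) to -0.52 (GIGYF2), and the Dex value with KLA positive, from 0.23 (SLC35D1) to 0.64 (AFAP1). None of the positive Dex values with KLA was called. REV3L overlaps TRAF3IP2-AS1 on the other strand, GIGYF2 overlaps KCNJ13, and AFAP1 overlaps AFAP1-AS1 and LOC389199.

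The negative side was led, after RPPH1, by IER3, an immediate early gene that NF-kB drives. IER3 read 86.7, 78.0 and 78.8 CPM in DMSO, 105, 94.6 and 96.1 CPM with Dex, 186, 131 and 150 CPM with KLA and 106, 112 and 84.7 CPM with DexKLA. The KLA libraries stood above all the others, and the DexKLA libraries overlapped those with Dex. IER3 rose with KLA by 0.94 ± 0.13 (edgeR adjusted p = 0.0011) and fell when Dex was added to KLA by 0.63 ± 0.12 (edgeR adjusted p = 0.0131), while its Dex value without KLA was 0.28 ± 0.13 (edgeR adjusted p = 0.232). Its interaction of -0.91 ± 0.18 was not called (edgeR adjusted p = 0.0544), and it was -0.63 with the length and GC trend removed. IER3 has 6 annotated loci and overlaps IER3-AS1, so its reads cannot be assigned to 1 locus or strand.

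The remaining 10 of the 12 genes on this side were NOP10, LGALS1, PHPT1, ELOB, LINC00513, MRPL40, RPP25L, CWF19L1, FKBP1B and CHCHD5, from -1.07 (LINC00513) to -0.66 (PHPT1). With the length and GC trend removed, CWF19L1 was almost as counted (-0.73 against -0.74) and the other 9 lay between -0.72 (LINC00513) and -0.38 (NOP10, in place of -0.80). LGALS1 stood then at -0.40, PHPT1 at -0.41, ELOB and RPP25L at -0.46, MRPL40 at -0.47, CHCHD5 at -0.49 and FKBP1B at -0.50. NOP10 belongs to the particles that guide pseudouridylation, MRPL40 to the mitochondrial ribosome and ELOB (elongin B) to elongation and ubiquitin ligase complexes, and LGALS1 is galectin-1. FKBP1B, an immunophilin, rose with Dex by 1.05 ± 0.13 (edgeR adjusted p = 6.44e-05), and its Dex value with KLA was 0.27 ± 0.12 (edgeR adjusted p = 0.42). It was the 1 gene of the 12 with a positive Dex value in both settings. In PHPT1, a phosphohistidine phosphatase, the DexKLA libraries (128, 128 and 115 CPM) overlapped the DMSO libraries (130, 117 and 117 CPM). The single agents gave 142 to 161 CPM with Dex and 147 to 163 CPM with KLA. CWF19L1 contains SNORA12 on the same strand.

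**Figure D3:**
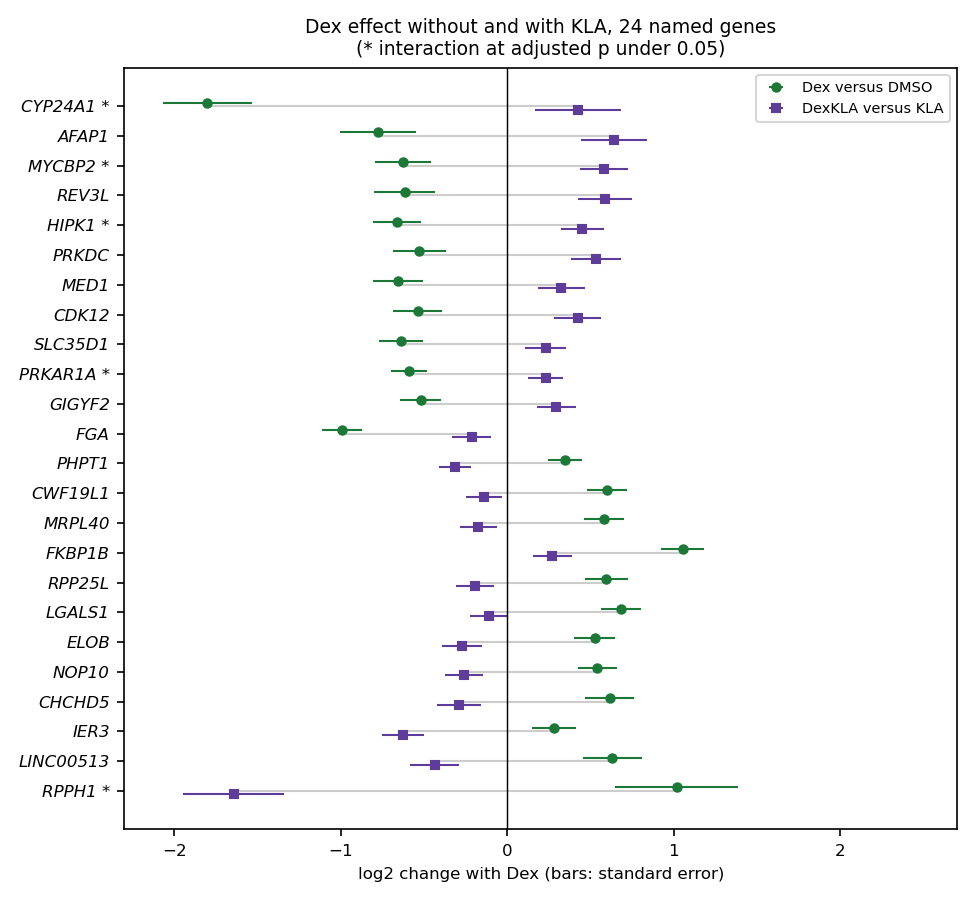
Log2 change with Dex (x axis, bars are standard errors) without KLA (green circles) and with KLA (purple squares) for the 12 genes of smallest interaction p in each direction; asterisks mark the 5 with an adjusted p under 0.05. In 22 of the 24 genes the 2 points lie on opposite sides of 0, FGA and FKBP1B being the exceptions.

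The genes of both directions shared a form. Of the 577 positive genes at an adjusted p under 0.1, 573 had negative log2 values for both Dex and KLA alone. Their medians were -0.42 with Dex, -0.50 with KLA and -0.20 with both agents, against DMSO. Of the 528 negative genes, 525 had positive values for both single agents, with medians of 0.42, 0.52 and 0.31. In 540 of the 577 and 443 of the 528, the change with both agents was smaller in size than each change with 1 agent. Both counts describe the interaction itself, since Dex, KLA and the interaction share the DMSO libraries, and nothing further is read from them.

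Transcript length moved with the interaction. Across 13166 genes, which are not independent, Spearman's rank correlation between the interaction and the length of the kept transcript was 0.576. Ordered by length in 5 groups of about equal size, the median interaction was -0.34, -0.13, 0.02, 0.18 and 0.35 from the shortest (up to 1723 bases) to the longest (5452 bases and more). The share of genes with a positive value was 16.5% in the shortest group and 83.7% in the longest. The 577 positive genes at an adjusted p under 0.1 had a median length of 7069 bases, the 528 negative ones 1245 bases and all tested genes 3130 bases. Single libraries carried such a trend too. The rank correlation between length and a library's log2 level, relative to the mean of all libraries, was lowest in Dex replicate 2 (-0.534) and KLA replicate 3 (-0.526) and highest in DMSO replicate 3 (0.395) and DexKLA replicate 3 (0.385). When each library's smooth trend on length and GC content was removed, the rank correlation for the interaction was 0.082 and the 5 medians ran from -0.04 to 0.06. With the trend removed, edgeR's quasi-likelihood test called 0 genes (0.0%) at an adjusted p under 0.05 and 13 (0.0987%) under 0.1.

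**Figure D4:**
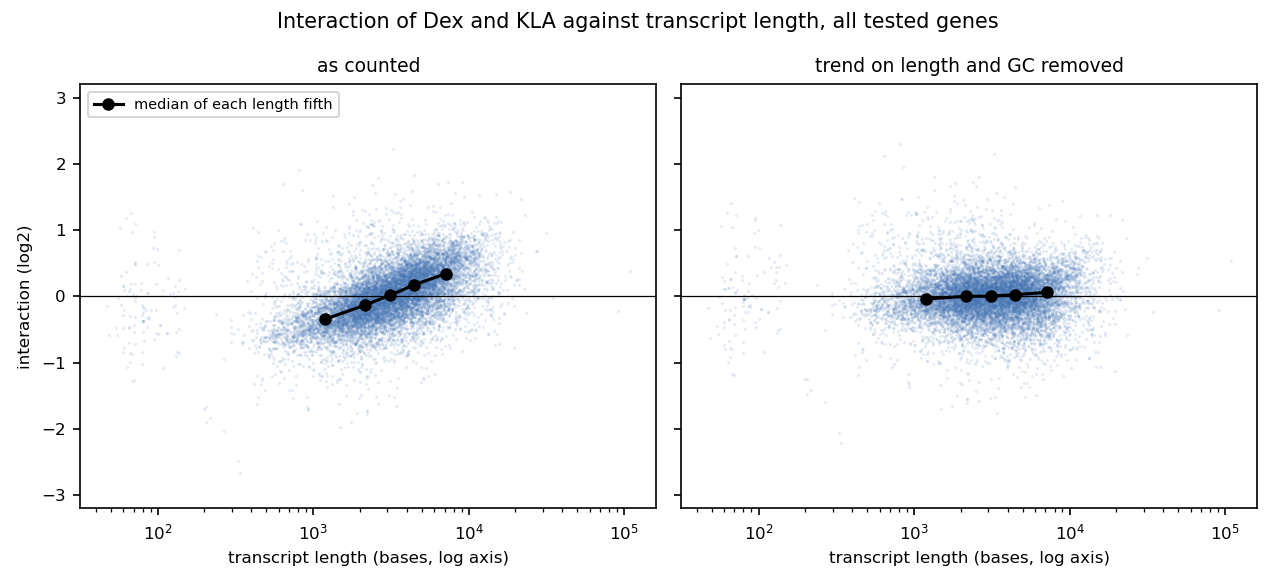
Interaction (log2, y axis) of each tested gene against the length of its kept transcript (log axis), as counted and with each library's trend on length and GC content removed; black points are medians of 5 length groups. As counted the medians climb from -0.34 to 0.35, and with the trend removed they lie between -0.04 and 0.06 (1 gene lies outside the y axis in each panel).

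Of the 5 called genes, CYP24A1 (3264 bases) lay near the median length. With the trend removed its interaction was 2.15, nearly as counted, and its edgeR adjusted p was 0.0852. PRKAR1A (4421 bases) kept 0.73 of 0.82, and FGA (2202 bases), at 0.84, was no smaller than as counted, both at an edgeR adjusted p of 0.0852. HIPK1 (8070 bases) went from 1.11 to 0.74 and MYCBP2 (14992 bases) from 1.21 to 0.92. RPPH1 (340 bases) went from -2.66 to -2.22. Over the 26 alternatives the edgeR adjusted p of CYP24A1 and the like values of DESeq2 and limma ran from 3.50e-16 to 0.162, those of HIPK1 to 0.212, those of MYCBP2 to 0.23, those of PRKAR1A to 0.214 and those of RPPH1 to 0.162. All 5 kept their direction in each of the 26. The 13 genes under 0.1 with the trend removed were these 3 (CYP24A1, PRKAR1A and HIPK1), FGA, and 9 with negative values, among them CWF19L1 (-0.73), the mitochondrial thioesterase ACOT13 (-0.91), the ATP synthase subunit ATP5F1E (-0.88), the ribosomal protein RPL37 (-1.11) and the kynureninase KYNU (-0.84). Several of these keep a long annotated transcript (7566 bases for RPL37, where its shortest has 3077, and 15135 bases for KYNU, where its shortest has 1764), and the correction depends on which is used.

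The single effects set the scale for these values. Dex without KLA changed 270 genes (2.05%), 160 up (1.22%) and 110 down (0.835%), by edgeR at an adjusted p under 0.05. Dex with KLA changed 86 (0.653%), 58 up (0.441%) and 28 down (0.213%). KLA without Dex changed 1807 genes (13.7%), 1024 up (7.78%) and 783 down (5.95%). KLA with Dex changed 0 genes (0.0%) in edgeR's quasi-likelihood test, with 934 at an unadjusted p under 0.05. DESeq2 and limma voom also gave 0 there, and edgeR with no filter on low counts gave 12. The median standard error was 0.21 for the interaction, 0.16 for Dex without KLA, 0.14 for Dex with KLA, and 0.15 for KLA without and with Dex. The KLA count was 5 without DMSO replicate 1, 897, 895 and 591 without DMSO replicate 2, DMSO replicate 3 and KLA replicate 3, and 4 with the depth class of a library in the model. Leaving out DMSO replicate 1, 2 or 3 left 66, 124 or 97 Dex calls in cells not given KLA. Leaving out Dex replicate 2 left 56 and Dex replicate 3 left 72, while 915 and 728 were called without KLA replicate 3 and without DexKLA replicate 3. The Dex count with KLA was 52 and 55 without DexKLA replicates 2 and 3. Scaled by library size alone, 26.3% of the Dex calls were upward in place of 59.3%, and 23.7% of the KLA calls in place of 56.7%.

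Of the genes Dex changed, 37 were called both without and with KLA, and all 37 moved in the same direction. None of these 37 had an interaction at an adjusted p under 0.05, and the median size of their interaction was 0.23. The lowest edgeR adjusted p was 0.0925, for SLC26A3 (-0.77). LOC285847, at 0 CPM in DMSO, had -4.76. The 37 were picked by calls in both comparisons that make up the interaction, which limits what these counts show. HIF3A and HOMER2 were among them. HIF3A, a hypoxia-inducible factor subunit, had 1 to 3 counts in each library without Dex and 28 to 140 in each library with it. Its Dex values were 5.10 ± 0.42 without KLA and 5.59 ± 0.33 with it, and its interaction was 0.49, with a 95% interval of -1.15 to 2.13. HOMER2, a postsynaptic scaffold protein, read 6.19 to 7.71 CPM in DMSO, 25.8 to 28.8 CPM with Dex, 4.62 to 6.25 CPM with KLA and 28.8 to 30.9 CPM with DexKLA. Its interaction was 0.51, with a 95% interval of 0.05 to 0.98 (edgeR adjusted p = 0.181).

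AFP, the fetal albumin homologue that hepatomas secrete, rose with Dex by 1.13 ± 0.15 without KLA (edgeR adjusted p = 0.000189) and by 0.72 ± 0.15 with KLA (edgeR adjusted p = 0.0203). Its interaction was -0.41, with a 95% interval of -0.85 to 0.03, and -0.24 without DexKLA replicate 3. AKR1C1, a reductase of steroids, fell with Dex by 0.92 ± 0.12 and 1.09 ± 0.12 in the 2 settings, and its interaction was -0.18, with a 95% interval of -0.52 to 0.16. It was -0.44 with the length and GC trend removed, -0.28 without KLA replicate 2 and -0.04 without KLA replicate 3. These intervals do not show equal responses. They reach differences in size of 0.85 in AFP and 0.52 in AKR1C1. ALB had an interaction of -0.26 (95% interval -0.71 to 0.18), which was -0.16 without DMSO replicate 1, -0.14 without DexKLA replicate 3 and -0.16 with the trend removed. The interaction of SLC6A14, an amino acid transporter that fell with Dex in both settings, was -0.78 (95% interval -1.97 to 0.42), with -1.26 without DMSO replicate 2 and -1.17 without Dex replicate 2. In 233 genes Dex was called without KLA but not with it, and in 49 with KLA but not without it. Of the 233, 4 had a called interaction and 151 one at an adjusted p under 0.1, and of the 49, 1 and 15. Over all genes the shares were 0.038% and 8.39%. Both sets were picked by the 2 Dex comparisons that make up the interaction, so the raised counts are not read further. For most of these genes a call in 1 setting alone came with no called difference between the settings.

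Among the receptor genes, NR3C1, which encodes the glucocorticoid receptor, had an interaction of 0.45, with a 95% interval of -0.05 to 0.95, and no single effect was called. It was 0.22 without Dex replicate 2 and 0.15 with the length and GC trend removed. FKBP5, a co-chaperone that binds the receptor and is a classic target of it, stood at 22.5, 25.3 and 29.2 CPM in DMSO and 37.7, 39.5 and 35.6 CPM with Dex. With KLA it read 15.4, 18.0 and 24.5 CPM and with DexKLA 36.3, 33.0 and 48.6 CPM. The libraries with Dex lay above those without it in both settings. FKBP5 rose with Dex by 1.04 ± 0.16 in cells with KLA (edgeR adjusted p = 0.000867), and its value without KLA was 0.55 ± 0.17 (edgeR adjusted p = 0.0856). Its interaction, 0.49, had a 95% interval of 0.00 to 0.98 (edgeR adjusted p = 0.223), and it was 0.30 without DexKLA replicate 3. KLF9, a transcription factor that glucocorticoids induce, had Dex values of 0.50 without and 0.94 with KLA and an interaction of 0.43 (95% interval 0.03 to 0.84, edgeR adjusted p = 0.189), which was 0.19 with the trend removed. FKBP5 overlaps LOC285847 and MIR5690 on the same strand.

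SGK1, a kinase named for its induction by glucocorticoids, fell with Dex alone here by 0.79 ± 0.14 (edgeR adjusted p = 0.00358). It had a Dex value of -0.18 ± 0.13 in cells with KLA, which was not called (edgeR adjusted p = 0.632). It read 44.5, 40.5 and 43.2 CPM in DMSO, 23.8, 24.4 and 26.0 CPM with Dex, 38.6, 31.6 and 26.5 CPM with KLA and 28.3, 29.2 and 28.1 CPM with DexKLA. All treated libraries lay below DMSO. Its interaction was 0.61, with a 95% interval of 0.22 to 1.00 (edgeR adjusted p = 0.0781). PER1, a clock repressor, had an interaction of 0.02 (95% interval -0.52 to 0.56), CEBPD, an acute-phase transcription factor, -0.38 (-0.83 to 0.08), and DUSP1, a phosphatase of MAP kinases, 0.37 (-0.43 to 1.17). TSC22D3, which encodes GILZ, held 3 to 22 counts per library and could not be tested. Of 27 tested glucocorticoid receptor targets, none had a called interaction, 3 were positive at an adjusted p under 0.1 (SGK1, PCK1 and TSC22D1), and 17 of the 27 values were above 0. Over all genes 4.38% were positive at that level and 51.5% lay above 0. The list's median was 0.16 against 0.02 over all genes, and none of its members was under 0.1 with the trend removed. Of 18 genes for the receptor, its chaperones and coregulators, 4 were positive at an adjusted p under 0.1 (4.38% of all genes). Among them were the coactivators NCOA1 (1.11) and NCOA2 (1.00) and the corepressor NCOR1 (0.66), named after their values were seen. With the trend removed none of the 18 was under 0.1.

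No tested gene in the lists for TLR4 and NF-kB had a called interaction. LY96, which encodes MD-2, the partner of TLR4, read 0.554 to 3.13 CPM and had an interaction of -1.20 (95% interval -2.33 to -0.07, edgeR adjusted p = 0.197), or -0.57 with the length and GC trend removed. CD14, which hands lipopolysaccharide to that receptor, had 0.40 (95% interval -0.70 to 1.5). Of 16 tested genes of the TLR4 complex and its adaptors, 1 (TAB2, 0.49) was positive at an adjusted p under 0.1. Over all genes 4.38% were, and the median of the 16 was 0.14. Of 19 NF-kB targets and cytokines, 1 (IER3) was negative at that level, against 4.01% of all genes. Above 0 lay 14 of the 19 (51.5% of all genes did), and the median was 0.10. NFKBIA, the inhibitor that NF-kB induces against itself, had an interaction of 0.10 (95% interval -0.21 to 0.40). That of TNFAIP3, the feedback inhibitor A20, was 0.24 (95% interval -0.18 to 0.67). With the length and GC trend removed NFKBIA stood at 0.29 and TNFAIP3 at 0.04. TNFAIP3 overlaps WAKMAR2 on the other strand.

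CCL20, a chemokine that draws lymphocytes, read 203, 262 and 295 CPM in DMSO, 533, 396 and 447 CPM with Dex, 719, 376 and 489 CPM with KLA and 516, 718 and 312 CPM with DexKLA. All 9 treated libraries lay above all DMSO libraries, and the 3 treated groups overlapped. CCL20 rose with KLA by 1.06 ± 0.23 (edgeR adjusted p = 0.0107), and its Dex value without KLA was 0.85 ± 0.23 (edgeR adjusted p = 0.0531). Its interaction was -0.89, with a 95% interval of -1.55 to -0.23, and was not called (edgeR adjusted p = 0.111). It was -0.49 with the length and GC trend removed and ran from -1.20 (without DexKLA replicate 2) to -0.60 (without KLA replicate 1). CXCL8, the neutrophil chemokine, read 0.88 to 3.07 CPM over all libraries and had an interaction of -0.24 (95% interval -1.29 to 0.82).

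The gene lists were described by their counts and medians alone. Members named from here on with an adjusted p under 0.1 were chosen after their values were seen. CYP24A1, in the list for drug and steroid metabolism, and RPPH1, in that for noncoding RNAs, were the 2 list members with a called interaction. With the length and GC trend removed, the list members at an adjusted p under 0.1 were FGA, CYP24A1, RPL37 and ATP5F1E. In fatty acid and triglyceride synthesis, 8 of 25 genes were positive at an adjusted p under 0.1 and none negative, and 22 had values above 0, with a median of 0.42. Of all genes 4.38% were positive at that level and 51.5% lay above 0. With the trend removed none of the 25 was under 0.1. Among the 8 were ACACA (acetyl-CoA carboxylase) at 0.93 ± 0.20, FASN (fatty acid synthase) at 0.82 ± 0.22, SCD (stearoyl-CoA desaturase) at 0.52 ± 0.17 and GPAM (the first acyl transfer to glycerol phosphate) at 0.56 ± 0.18. The list's median log2 values were -0.29 for Dex alone, -0.35 for KLA alone, 0.10 for Dex with KLA and 0.07 for KLA with Dex. Its members were long (median 4338 bases), and with the trend removed their median was 0.28, against 0.01 for all genes. By contrast, 28 genes of cholesterol synthesis and uptake had a median of 0.03, with none at an adjusted p under 0.1.

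Ribosomal proteins and the subunits of oxidative phosphorylation lay on the negative side. All 49 tested cytosolic ribosomal proteins had values below 0, 23 of them at an adjusted p under 0.1, with a median of -0.52. Of all genes 48.5% lay below 0, and 4.01% did so at that level. Their median was 0.35 for Dex alone, 0.37 for KLA alone, -0.18 for Dex with KLA and -0.13 for KLA with Dex. Of 55 subunits of oxidative phosphorylation, 50 were below 0 and 23 at an adjusted p under 0.1, with a median of -0.47. ATP5PO of ATP synthase had -0.75 ± 0.18, COX5B of cytochrome oxidase -0.74 ± 0.19 and NDUFA13 of complex I -0.67 ± 0.17. These are short transcripts (median lengths 1081 and 1069 bases). With the trend removed the medians were -0.23 for the ribosomal proteins and -0.19 for the subunits, and 1 member of each list, RPL37 and ATP5F1E, was under 0.1.

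Several short structural RNAs had negative values. Besides RPPH1, the 7SK RNA that holds back transcription elongation (RN7SK, -2.49 ± 0.63) and the RNA of ribonuclease MRP (RMRP, -2.02 ± 0.64) were negative at an adjusted p under 0.1, and so was the signal recognition particle RNA RN7SL1 (-0.55 ± 0.17). In the same list the long cytoplasmic RNA NORAD (0.49 ± 0.14) and the long nuclear RNA TUG1 (0.52 ± 0.17) were positive at that level. Of 15 tested RNAs of the list, 4 were negative and 2 positive at that level (4.01% and 4.38% of all genes). Below 0 lay 11 of the 15 (48.5% of all genes), and the median was -0.38. With the trend removed none of the 15 was under 0.1. RN7SK then stood at -2.06, RMRP at -1.59, RN7SL1 at -0.13, NORAD at 0.30 and TUG1 at 0.20.

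Lists of hepatocyte function had medians on both sides of 0. Of 25 hepatocyte transcription factors, 21 were above 0 (51.5% of all genes were), with a median of 0.27, or 0.21 with the trend removed. PPARA, the fatty acid sensor, at 0.90 ± 0.25, was the 1 member positive at an adjusted p under 0.1 (4.38% of all genes). CEBPA, which keeps hepatocytes differentiated, had an interaction of 0.37 (95% interval 0.02 to 0.73, edgeR adjusted p = 0.197), and fell with Dex by 0.85 ± 0.12 (edgeR adjusted p = 0.00047). Of 17 genes of bile acid transport and FXR targets, 2 were positive and 2 negative at an adjusted p under 0.1 (4.38% and 4.01% of all genes). The median was 0.22, or 0.08 with the trend removed, and none of the 17 was then under 0.1. KLB, the coreceptor of FGF19, stood at 0.70 ± 0.17 and SLC51B, a bile acid exporter, at 0.94 ± 0.31, while CYP7A1, the rate-limiting enzyme of bile acid synthesis, stood at -0.97 ± 0.33 and SLC27A5, a bile acid ligase, at -0.68 ± 0.19. Of 23 acute-phase proteins, FGA and A2M were positive at that level (4.38% of all genes). Below 0 lay 14 of the 23 (48.5% of all genes), with a median of -0.16. With the trend removed the median of the 23 was 0.0025, with 13 above 0 and 10 below. Apolipoproteins and other secreted proteins had a median of -0.25 over 32 genes, with the long APOB at 1.02 ± 0.28 and the short APOH at -0.54 ± 0.17 and APOM at -0.47 ± 0.14. With the trend removed the median was -0.03, APOH stood at -0.21 and APOM at -0.10. The medians of the lists for ribosomal proteins, oxidative phosphorylation, structural RNAs, fatty acid synthesis, hepatocyte transcription factors, bile acid genes and apolipoproteins kept their sign in each of the 26 alternatives. The apolipoprotein median came as near to 0 as -0.02. A kept sign was not particular to these lists. Cholesterol synthesis (median 0.03) and NF-kB targets also kept theirs in all 26, and the median of all genes did in 25. The median of the acute-phase list kept its sign in 24, and scaling by library size alone left it at -0.05.

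**Figure D5:**
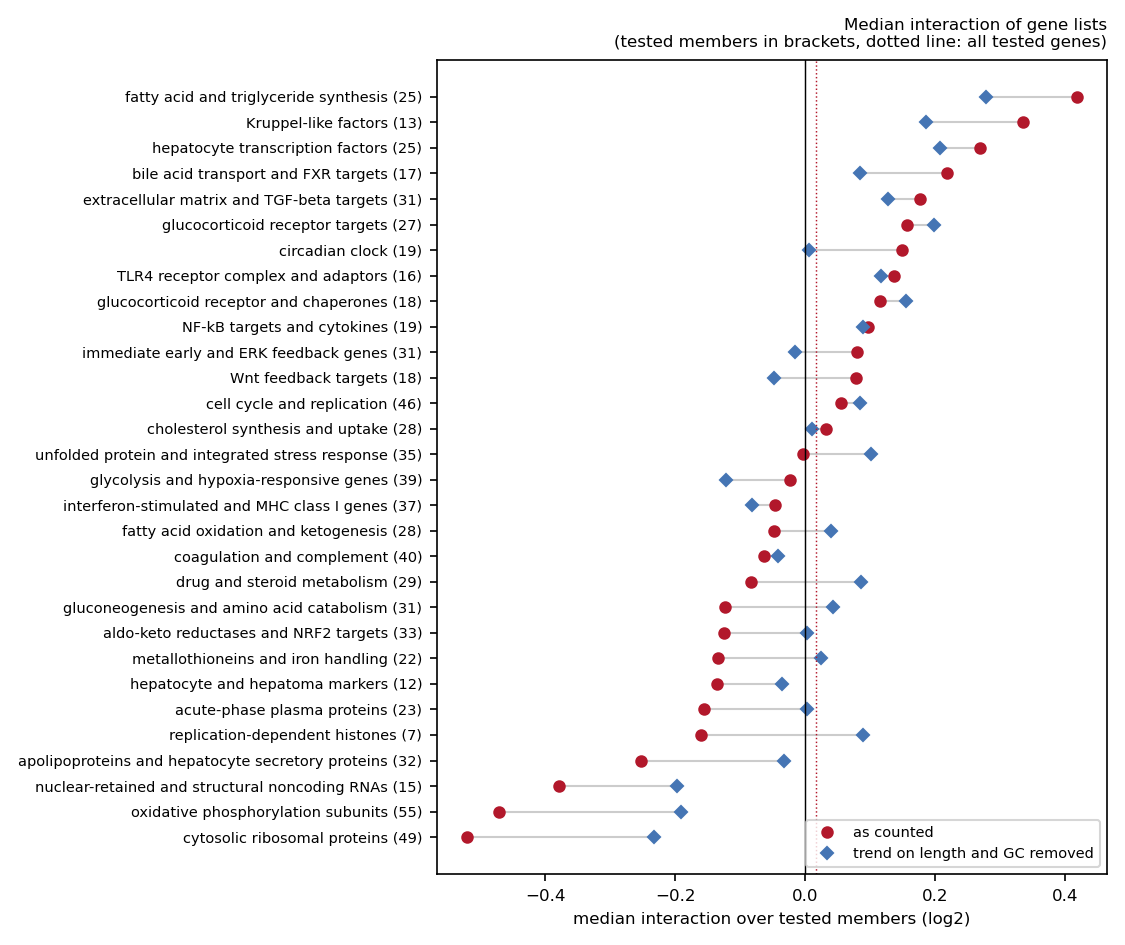
Median interaction (log2, x axis) over the tested members of each gene list (number in brackets) as counted (red circles) and with each library's trend on length and GC content removed (blue diamonds); the dotted line is the median of all tested genes. The medians run from -0.52 (cytosolic ribosomal proteins) to 0.42 (fatty acid and triglyceride synthesis) as counted, and from -0.23 to 0.28 for the same lists with the trend removed.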

How the data were processed

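RNA from 12 HepG2 libraries was analysed from the authors' deposited table of 70507 RefSeq transcripts. Per the submitters' processing notes, Trimmomatic, BWA 0.7.17 and HOMER 4.10 were used with hg38; their roles, the counting rule and the strand are not given in the sources used here. The deposited values came in steps of 0.5 and were taken as estimated counts (expected counts), 32.6% to 36.4% of a library's values not being whole, and were rounded to whole numbers here. How reads shared by near-identical genes were counted is not stated, so values of such genes are uncertain. Transcripts without a symbol (406, with 1.71% to 2.55% of a library's total) were left out. For each of 28256 symbols the transcript with the highest total was kept.

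The test used edgeR 4.0.16 (R 4.3.3) with the following steps: filterByExpr (minimum count 10), TMM scaling, 1 mean per group over all 12 libraries (8 residual degrees of freedom), the quasi-likelihood test, and Benjamini-Hochberg adjustment over the 13166 tested genes of each comparison, with calls at an adjusted p under 0.05. All tests were two-sided. Levels are TMM-normalised CPM per library, save those of the cell type markers, which were scaled by library total alone. Log2 values carry standard errors, and 95% intervals come from the same fit. Totals of 3317739 to 20933489 counts limit the genes with few reads, as RPPH1 and HIF3A show. No 2 replicates agreed within sampling noise (chi-square per degree of freedom at least 1.88). The length and GC trend was a loess curve per library (span 0.3) on kept-transcript length and GC content, entered as an offset, with GC known for 98.2% of tested genes.

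The named genes were the 12 with the smallest interaction p in each direction (average log2 CPM 1 or more), up to 4 called members of each of 34 lists, genes called with opposite signs in the 2 settings of an agent (there were none), and a fixed set of response, receptor and liver genes. The members and lists were chosen with earlier results of these data known. Alternatives used DESeq2 1.42.0, limma 3.58.1 and other settings of edgeR. The scripts were tested on simulated counts that held no length or GC trend, so that check does not cover the trend in these libraries.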

Additional observations from a re-analysis of the deposited data

Results flagged for a closer look

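In 5 genes the effect of Dex differed between cells with and without KLA by the test of that difference (edgeR quasi-likelihood interaction, Benjamini-Hochberg adjusted p = 0.045 in each). The differences of the log2 Dex effects, with KLA minus without, were 2.23 in CYP24A1, 1.11 in HIPK1, 1.21 in MYCBP2, 0.82 in PRKAR1A and -2.66 in RPPH1. In CYP24A1, HIPK1, MYCBP2 and PRKAR1A, all 3 libraries with Dex alone lay below all 3 DMSO libraries. In RPPH1 all 3 DexKLA libraries lay below all 3 KLA libraries. The 5 genes were picked by a value computed from these same libraries, so this separation adds no support for the interaction. None of the 5 was called in limma voom or with the trend on length and GC removed.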

How the results depend on the processing

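Of the 26 alternatives fitted, 3 were chosen after seeing the data: the trend on length alone, the trend on the shortest transcript's length with GC, and leaving out Dex replicate 2 and KLA replicate 3 together. The cause of each change below was not tested. The interaction called 5 genes, and 0 with DESeq2 size factors in edgeR (2929 genes at an unadjusted p under 0.05), 0 with limma voom, 0 with the depth class as covariate, 0 with the trend on length and GC removed, 0 with the trend on shortest transcript length and GC, 2 with the trend on length alone and 3 without Dex replicate 2 and KLA replicate 3. It called 88 genes in thinned libraries, 230 with library size alone, 705 in the DESeq2 Wald test, 1041 with no filter and 1105 at an adjusted p under 0.1. Of the 5 genes, 4 were called by DESeq2 and all 5 with library size alone, no filter or thinning, and all 5 kept their sign as differences of mean CPM. Scaling by library size alone moved the median interaction of all genes from 0.02 to 0.13.

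With the replicate block (the replicate number in the model) the interaction called 0 genes and Dex versus DMSO 134. The labels do not say whether the numbers pair the samples. Of 18 same-numbered pairs 1 had a correlation of deviations over 0.1 (range -0.31 to 0.173), against -0.309 to 0.441 for other pairs. With 3 libraries a group such correlations cannot decide whether same-numbered libraries shared a batch. Leaving out single libraries gave 0 to 681 genes for the interaction, 56 to 915 for Dex versus DMSO, 52 to 94 for DexKLA versus KLA and 5 to 2368 for KLA versus DMSO. Dex versus DMSO (270) gave 650 with DESeq2, 907 with no filter, 129 with the depth class and 119 without Dex replicate 2 and KLA replicate 3. KLA versus DMSO (1807) gave 831, 1062 and 1012 with the trends on length and GC, on length alone and on shortest length, 4 with the depth class and 626 without those 2 libraries. With no filter, DexKLA versus KLA (86) gave 204 and DexKLA versus Dex (0) gave 12.

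Of 1165 values of 45 named genes under the alternatives, 942 kept direction and side of the threshold, 130 newly passed it, 73 no longer did and 20 changed sign, all in genes with no called interaction. PER1 (0.02) gave -0.077 with the trend on length and GC, -0.081 thinned, -0.14 with the depth class, -0.14 with the trend on length alone, -0.10 with that on shortest length, -0.18 without the 2 libraries and -0.10 to 0.14 without single ones. CXCL8 (-0.24) gave 0.10, 0.11, 0.010 and 0.32 with the trend on length and GC, the depth class, the trend on length alone and without the 2 libraries, and -0.44 to 0.15 without single ones. DUSP1 gave -0.17 with the depth class and -0.10 without the 2 libraries, FGB -0.011 with the trend on shortest length, and CD14 -0.12 to 0.68 without single libraries. The 24 genes of smallest p kept their direction in all 26 alternatives.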
